A study of Homo sapiens with 9 samples.

Results

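Transcripts of 9 genes of MHC class I antigen presentation were followed in HT29 cells, a line from a human colorectal adenocarcinoma. The genes were chosen by name: HLA-B, HLA-C, HLA-E, HLA-F, B2M, TAP1, TAP2, TAPBP and NLRC5. Of these 9 members, 8 were found among the 11664 gene names of the 3 deposited tables, 6 of them in both tables that hold the control, and TAP2 was listed in none.

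The study asked what conditioned medium (CM) from a culture model of obese colonic fat does to colon cancer cells. The 9 libraries fall into 3 groups of 3: HT29 cells given CRC-MPS CM for 24 h, HT29 cells given ESC CM for 24 h, and control HT29 cells starved of serum for 24 h. The CRC-MPS is a microphysiological system in which minced epiploic adipose tissue (EPAT) and HT29-GFP cells lie between sheets of EPAT-derived stromal cells (ESC), and ESC CM came from such stromal cells alone. All 3 groups are the same line, so a value describes 1 genetic background. The sample titles name the CRC-MPS group without stating obesity, and the obese origin of its medium is stated in the results of the study. Titles of both CM groups also carry the letters Con, left unexplained. By the methods of the study both CM came from cultures fed with fetal bovine serum, while the control received no serum. Serum and secreted factors therefore cannot be told apart in a comparison with control. Nothing beyond a biological replicate number says that libraries of a group came from separate cultures or tissue donors, so p-values measure the spread between these libraries, which may be technical.

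MHC class I molecules carry short peptides from inside the cell to its surface, where CD8 T cells read them. A heavy chain (HLA-B, HLA-C, or the less variable HLA-E and HLA-F) pairs with beta-2 microglobulin (B2M). The peptides are cut by the proteasome, pumped into the endoplasmic reticulum by the transporter TAP1 and TAP2, and loaded with the help of tapasin (TAPBP). NLRC5 is a transactivator that binds no DNA by itself and raises transcription of class I genes, many of which also answer to interferon. In colon cancer, loss of this pathway is known as a route by which tumor cells escape T cells.

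The start regions of several members carry letters of the interferon-stimulated response element, and the start regions of 5 members are shown because these genes differed widely in how their transcripts responded. RefSeq gave start regions (GRCh38.p14) for 7 of the 9 members, not for HLA-E or NLRC5. Windows of 250 bases before to 50 bases after each start were searched on both strands for GAAA, 2 bases of any kind and GAAA again, which 3.57% of 35116 such windows held. It was found in 5 of 7 members: HLA-F, B2M, TAP1, TAP2 and TAPBP. The 250 bases before the start are printed 5′ to 3′ in the direction of the gene, and capitals mark the matches, which in TAP1, B2M and TAPBP are 2 that overlap and in TAP1 and HLA-F lie on the other strand.
TAP1: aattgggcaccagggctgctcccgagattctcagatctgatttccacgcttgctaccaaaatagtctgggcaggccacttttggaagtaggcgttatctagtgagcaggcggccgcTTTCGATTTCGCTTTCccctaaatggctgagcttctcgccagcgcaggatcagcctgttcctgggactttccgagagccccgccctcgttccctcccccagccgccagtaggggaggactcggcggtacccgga
HLA-F: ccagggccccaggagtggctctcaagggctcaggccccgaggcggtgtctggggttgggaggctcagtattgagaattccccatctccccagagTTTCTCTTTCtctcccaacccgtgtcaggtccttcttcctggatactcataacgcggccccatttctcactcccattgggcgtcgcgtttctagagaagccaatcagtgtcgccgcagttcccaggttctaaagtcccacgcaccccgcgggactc
B2M: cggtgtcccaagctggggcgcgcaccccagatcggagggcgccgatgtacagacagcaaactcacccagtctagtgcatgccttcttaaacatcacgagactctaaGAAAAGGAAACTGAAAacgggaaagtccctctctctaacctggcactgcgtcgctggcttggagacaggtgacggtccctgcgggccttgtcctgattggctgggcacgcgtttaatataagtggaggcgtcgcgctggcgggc
TAPBP: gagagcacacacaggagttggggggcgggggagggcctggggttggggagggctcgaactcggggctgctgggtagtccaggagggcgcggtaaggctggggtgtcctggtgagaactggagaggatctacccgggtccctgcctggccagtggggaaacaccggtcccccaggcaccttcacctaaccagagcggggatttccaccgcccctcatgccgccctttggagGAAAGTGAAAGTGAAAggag
HLA-B: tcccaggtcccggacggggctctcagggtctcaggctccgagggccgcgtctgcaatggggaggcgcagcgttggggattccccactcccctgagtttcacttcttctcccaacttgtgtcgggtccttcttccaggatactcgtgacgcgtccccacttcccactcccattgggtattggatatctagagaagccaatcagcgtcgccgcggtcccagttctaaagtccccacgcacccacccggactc
These stretches lie at chr6:32853705-32853954 (minus strand), chr6:29723184-29723433 (plus strand), chr15:44711267-44711516 (plus strand), chr6:33314079-33314328 (minus strand) and chr6:31357180-31357429 (minus strand). In TAP1 the matches began 134 and 128 bases before the start, in B2M 144 and 138 bases before it, in TAPBP 20 and 14 bases before it, and in HLA-F 156 bases before it. HLA-B and HLA-C held no exact match of this pattern. That does not show that they lack a response element, since so strict a pattern passes over its variants. Whether a match went with the response of a transcript was not tested. CCAAT, the letters bound by the factor NF-Y, stood in 5 of 7 members (HLA-B, HLA-C, HLA-F, B2M and TAP1), but also in 34.6% of all windows. A further TAP1 start listed by RefSeq held no match. These matches describe letters only.

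The peptide transporter subunit TAP1 and the nonclassical heavy chain HLA-E were lower with both CM, whereas the classical heavy chains and B2M differed little from control. TAP1 stood at 25.98% of the control mean with CRC-MPS CM and at 25.1% with ESC CM. HLA-E stood at 46.4% with CRC-MPS CM and again close to that, at 44.6%, with ESC CM. For both CM the control mean here was that of the table with CRC-MPS CM. A gene was called when its adjusted p was under 0.05 and the means of length-corrected transcript abundance (TPM) differed by over 1.5-fold, in limma fits on log2(TPM + 1) over all genes of a table. With CRC-MPS CM, 3 of 9 members fell (HLA-E, HLA-F, TAP1), which is 3 of the 6 listed there, and none rose, where 25.5% of all 10019 listed genes were called lower and 23.7% higher. With ESC CM, 4 of 9 members fell (HLA-E, HLA-F, TAP1, NLRC5), 4 of the 8 listed there, and none rose, where 25.5% of all 10007 listed genes were called lower and 20.7% higher. Libraries did not overlap between the groups for 4 of the 6 members listed with CRC-MPS CM and for all 8 listed with ESC CM, as for 89.4% and 90.6% of all listed genes. Each table holds only genes with p under 0.05 in the authors' own test, so a member that is missing was not selected there, which does not say that its level was equal. In a culture, fewer expressing cells and less RNA per cell cannot be told apart.

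**Figure D1:**
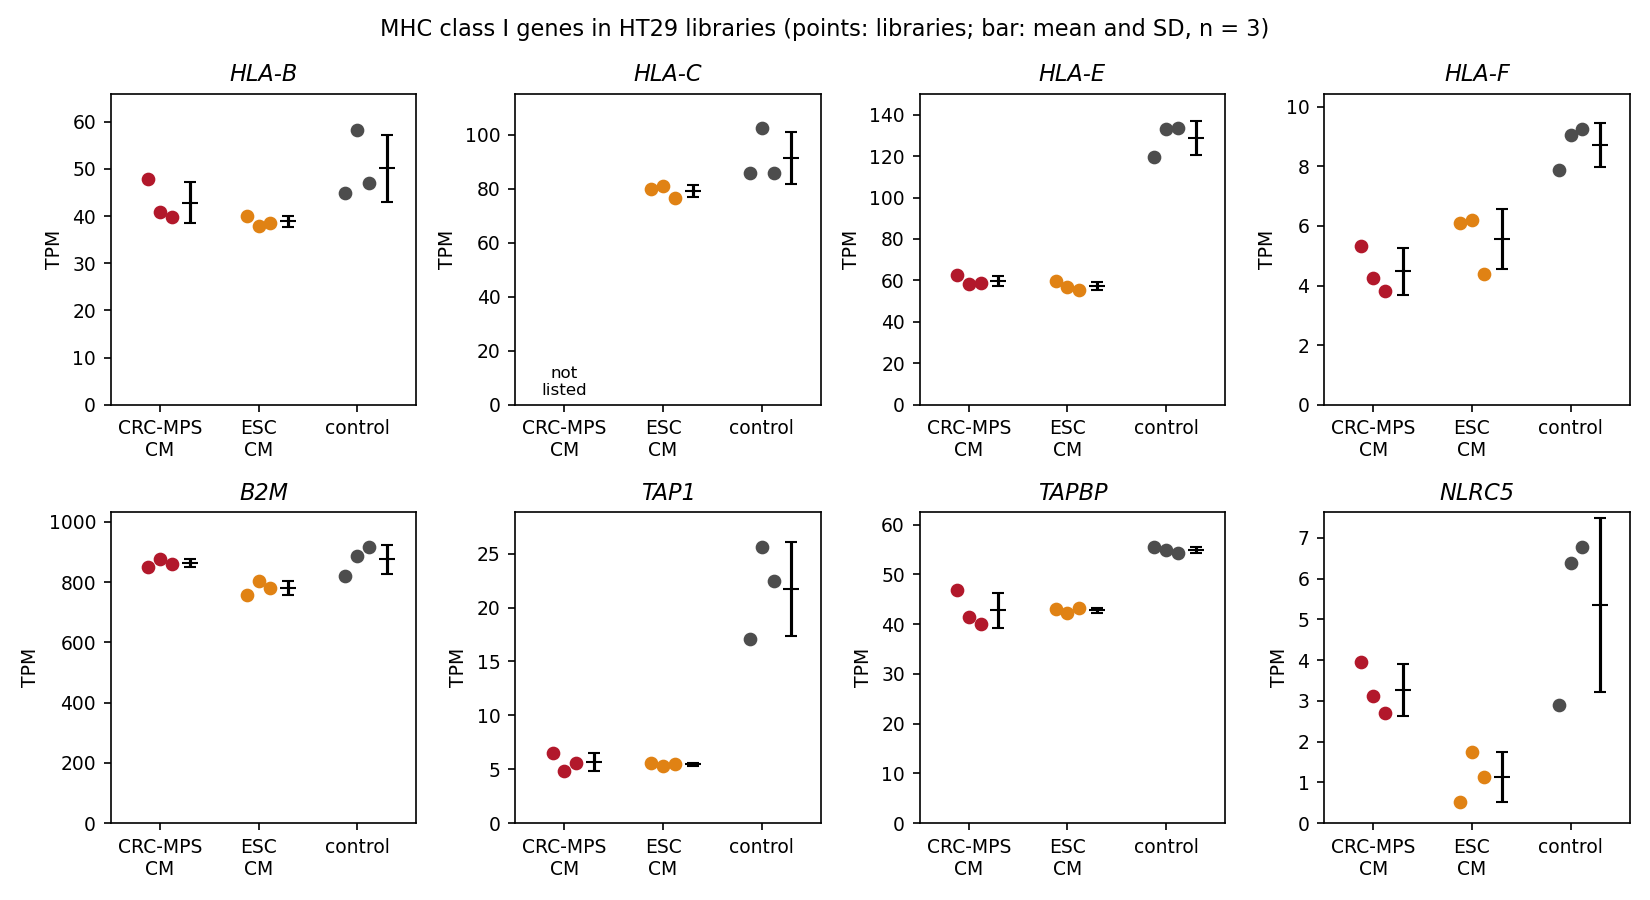
TPM (y axis, linear from 0) of 8 members in every library of the CRC-MPS CM, ESC CM and control groups (x axis), with points for libraries and a bar for the mean and SD (n = 3). TAP1 and HLA-E in the CM libraries lie far below every control library, while HLA-B, HLA-C, B2M and TAPBP lie nearer to control. HLA-C was not listed for CRC-MPS CM.

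HLA-E had the largest fold change of the listed heavy chains. HLA-E, which presents leader peptides of other class I chains to NKG2 receptors of NK cells, lies at chr6:30489467-30494205 on the plus strand (hg38, GENCODE 29). Its libraries gave 62.4, 58.2 and 58.7 TPM with CRC-MPS CM, against 119.4, 133.2 and 133.5 TPM in control. All CM libraries were below all control libraries. The mean was 59.8 ± 2.30 TPM with CRC-MPS CM and 129 ± 8.07 TPM in control (SD, n = 3 each), a log2 fold change of -1.09 (SE 0.066, limma adjusted p = 6.43e-06). With ESC CM the libraries gave 59.6, 57.0 and 55.6 TPM, against 118.4, 132.8 and 133.3 TPM for the control libraries in that table. Again the groups were wide apart, with means of 57.4 ± 2.06 TPM with ESC CM and 128 ± 8.43 TPM in control (SD, n = 3 each) and a log2 fold change of -1.14 (SE 0.060, limma adjusted p = 4.68e-06). The control libraries in both tables are the same 3, so these comparisons are not independent of each other.

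HLA-F, a nonclassical chain that can reach the surface without peptide, fell with both CM at a much lower level of expression. It had 5.34, 4.26 and 3.82 TPM with CRC-MPS CM, against 7.89, 9.05 and 9.25 TPM in control. With ESC CM it had 6.09, 6.20 and 4.40 TPM, against 7.93, 9.03 and 9.29 TPM in control. No CM library reached the lowest control library, although ESC CM replicate 3 sat well under the other ESC CM libraries. The log2 fold change was -0.84 (SE 0.13, limma adjusted p = 0.000686) with CRC-MPS CM and -0.58 (SE 0.13, limma adjusted p = 0.00625) with ESC CM. Without ESC CM replicate 3 the ratio of means for HLA-F was 0.702 and the call with ESC CM was lost, which leaves 3 members called lower there. The authors' mean normalized count for HLA-F was 111 and 113 in these tables, so its values rest on few reads beside those of HLA-E (4129 and 4024).

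The classical heavy chain HLA-B moved less. Its libraries had 47.8, 40.9 and 39.8 TPM with CRC-MPS CM, against 45.0, 58.3 and 47.1 TPM in control, and CRC-MPS CM replicate 1 lay inside the control range. The log2 fold change of -0.22 (SE 0.11, limma adjusted p = 0.176) did not pass. With ESC CM the libraries had 40.1, 37.9 and 38.6 TPM, against 44.9, 58.7 and 47.1 TPM in control, with no overlap and a ratio of means of 0.774. That difference passed on p alone (log2 fold change -0.35, SE 0.096, limma adjusted p = 0.0158) and not on size. HLA-C was listed only for ESC CM against control, with 79.7, 80.8 and 76.5 TPM in ESC CM libraries and 85.9, 102.4 and 85.9 TPM in control libraries. The HLA-C groups did not overlap, yet the ratio of means was 0.865 and the limma adjusted p was 0.0556, so HLA-C was not called.

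HLA-B and HLA-C share some of their transcript sequence, and HLA-E and HLA-F share little with the other members. Of the 31-base stretches of HLA-B transcripts, 8.86% also occur in HLA-C, and of those of HLA-C, 10.4% occur in HLA-B. The member closest to HLA-E (HLA-C) held 2.33% of its stretches, and the one closest to HLA-F (HLA-E) held 1.41%. Over all other genes the shared part was 25.5% for HLA-B, 17.0% for HLA-C, 11.8% for HLA-E and 26.0% for HLA-F, of which 16.4, 4.20, 4.63 and 23.6 percentage points, in that order, occur on the opposite strand of another gene and matter only if reads were not assigned by strand. The annotated HLA-B locus (chr6:31269491-31357188, minus strand) overlaps HLA-C (chr6:31268749-31272130, minus strand). HLA-F lies at chr6:29722775-29738528 on the plus strand. How the deposited values assign shared reads was not given in the sources used here, so levels of HLA-B and HLA-C are uncertain to that extent.

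B2M, the light chain that all these heavy chains share, was the most abundant member. It had 758, 803 and 780 TPM with ESC CM, against 822, 886 and 918 TPM in control. The libraries did not overlap, but the ratio of means was only 0.891 (log2 fold change -0.16, SE 0.050, limma adjusted p = 0.0273). B2M was not listed for CRC-MPS CM against control. Read from the table of the 2 CM, the CRC-MPS CM libraries had 852, 877 and 861 TPM, within the control range. Their mean over the control mean of the other table was 0.986, a ratio between tables that carries no test. B2M lies at chr15:44711487-44718877 on the plus strand, outside the MHC region of chromosome 6, and shares 1.79% of its 31-base stretches with other genes.

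The transporter and its partner responded unequally. TAP1, a subunit of the peptide pump, had 6.52, 4.87 and 5.55 TPM with CRC-MPS CM, against 17.0, 25.7 and 22.5 TPM in control. With ESC CM it had 5.56, 5.31 and 5.47 TPM, against 16.9, 25.6 and 22.4 TPM in control. Every CM library was far below the lowest control library. The log2 fold change of TAP1 was -1.76 (SE 0.16, limma adjusted p = 3.40e-05) with CRC-MPS CM and -1.79 (SE 0.14, limma adjusted p = 1.98e-05) with ESC CM. Only 5.57% of genes listed for CRC-MPS CM and 5.06% of those listed for ESC CM had a lower log2 ratio to control. Control replicate 1 had the lowest TAP1 of the control libraries, and without it the distance from control grew. Over each library left out in turn, the log2 fold change ran between -1.92 and -1.64 with CRC-MPS CM and between -1.95 and -1.67 with ESC CM.

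TAP1 (chr6:32845209-32853978, minus strand) overlaps PSMB9 on the opposite strand, and 12.2% of its 31-base stretches occur on the opposite strand of other genes. Whether reads were assigned by strand was not given in the sources used here, so a part of the TAP1 and PSMB9 values could be shared. TAP2 (chr6:32821833-32838780, minus strand), the other subunit, was listed in none of the tables.

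TAPBP encodes tapasin, which bridges the transporter and the empty heavy chain. It had 46.8, 41.4 and 40.0 TPM with CRC-MPS CM, against 55.6, 54.9 and 54.3 TPM in control. With ESC CM it had 43.1, 42.2 and 43.2 TPM, against 55.1, 54.7 and 54.2 TPM in control. The control libraries were nearly alike and all CM libraries were below them, with a ratio of means to control of 0.778 for CRC-MPS CM and 0.783 for ESC CM. On adjusted p alone TAPBP passed in both comparisons (limma adjusted p = 0.00372 with CRC-MPS CM, limma adjusted p = 0.000509 with ESC CM), without reaching 1.5-fold. By that looser rule 4 members were lower with CRC-MPS CM, where 40.2% of listed genes were, and 7 with ESC CM, where 41.7% were. TAPBP lies at chr6:33299694-33314387 on the minus strand.

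**Figure D2:**
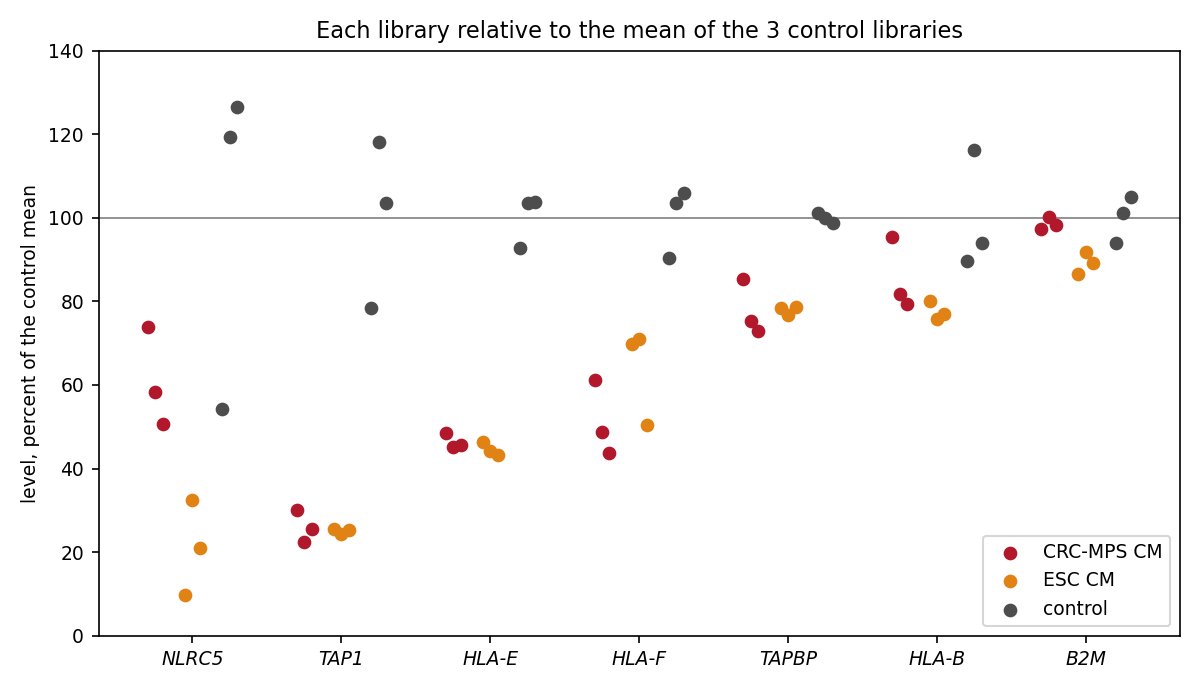
Level of 7 members in each library as percent of the mean of the 3 control libraries (y axis, linear), for CRC-MPS CM, ESC CM and control libraries side by side. CM libraries of TAP1 lie between 22.4% and 30.0% and those of HLA-E between 43.2% and 48.5%, while B2M lies between 86.6% and 100.2%. Control means come from the table of CRC-MPS CM with control, and for B2M from that of ESC CM with control. The CRC-MPS CM values of B2M and the ESC CM values of the other members thus come from another table than the control mean. NLRC5 is the member whose 2 CM groups are farthest apart.

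NLRC5, the transactivator, had the widest ratio between the CM among the 7 members with values in both. It had 0.520, 1.74 and 1.12 TPM with ESC CM, against 2.90, 6.41 and 6.79 TPM in control. The groups did not overlap, and control replicate 1 was far below the other control libraries. NLRC5 fell with ESC CM by a log2 fold change of -1.56 (SE 0.29, limma adjusted p = 0.00239). The ratio of means was 0.210, and 3.72% of listed genes had a lower log2 ratio.

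With CRC-MPS CM, NLRC5 had 3.96, 3.13 and 2.71 TPM, against 2.90, 6.39 and 6.77 TPM in control. Control replicate 1 lay inside the range of the CRC-MPS CM libraries, and the difference did not pass (log2 fold change -0.52, SE 0.25, limma adjusted p = 0.142). Without control replicate 1 NLRC5 would be called lower with CRC-MPS CM as well (log2 fold change -0.84, limma adjusted p = 0.00276), which makes 4 members. The call for NLRC5 with CRC-MPS CM therefore turned on 1 control library. NLRC5 lies at chr16:56989485-57083531 on the plus strand, and 0.319% of its 31-base stretches occur elsewhere. The authors' mean normalized count for NLRC5 was 129 and 113 against control and 44.1 between the CM, so reads were few.

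Compared directly, 40 genes of any kind were called between the CM, and 2 of the 9 members were listed. None of the members was called, where 1.06% of the 2835 listed genes were called higher and 0.353% lower (1.23% and 0.388% on adjusted p alone). The count of 40 was unstable: it ran between 9 (without ESC CM replicate 2) and 187 (without CRC-MPS CM replicate 1) with each library left out in turn, and was 270 when adjusted over listed genes alone. NLRC5 had 3.96, 3.14 and 2.71 TPM with CRC-MPS CM, against 0.520, 1.75 and 1.12 TPM with ESC CM. The ranges were apart and the ratio of means was 2.89 (log2 fold change 1.03, SE 0.20, unadjusted p = 0.000657, limma adjusted p = 0.104). The adjusted p of NLRC5 was 0.0148 when only the listed genes were counted as tests, and ran between 0.0810 and 0.293 with each library left out in turn. B2M had 852, 877 and 861 TPM with CRC-MPS CM, against 762, 804 and 782 TPM with ESC CM, without overlap. Its ratio of means was 1.10 (log2 fold change 0.14, SE 0.046, unadjusted p = 0.0134, limma adjusted p = 0.314). Both members thus had an unadjusted limma p under 0.05 and neither an adjusted one. Only genes with p under 0.05 in the authors' test on the same libraries were listed. The low unadjusted values were therefore largely given by that selection and are no separate support.

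Another 5 members (HLA-B, HLA-E, HLA-F, TAP1 and TAPBP) can be set side by side for the 2 CM only between tables, with no test, and HLA-C and TAP2 not at all. The mean with CRC-MPS CM over that with ESC CM was 1.10 for HLA-B, 1.04 for HLA-E, 0.804 for HLA-F, 1.04 for TAP1 and 0.999 for TAPBP, and the libraries overlapped in each. Values of the same library and member in 2 tables differed by at most 0.863% over 27 such pairs. Among the 7 members with values for both CM, only B2M and NLRC5 thus had ranges that did not meet, and groups did not overlap in 63.6% of all genes listed for that comparison.

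The order of levels shifted with CM. In control libraries (in the table with ESC CM) the order of mean TPM, which is corrected for transcript length, was B2M (875), HLA-E (128), HLA-C (91.4), TAPBP (54.7), HLA-B (50.2), TAP1 (21.6), HLA-F (8.75) and NLRC5 (5.37). Only TAPBP and HLA-B overlapped among neighbours there. With ESC CM it was B2M (780), HLA-C (79.0), HLA-E (57.4), TAPBP (42.8), HLA-B (38.9), HLA-F (5.56), TAP1 (5.45) and NLRC5 (1.13), so HLA-E stood under HLA-C and TAP1 overlapped HLA-F. With CRC-MPS CM the ranges of HLA-B (42.9) and TAPBP (42.8), of TAP1 (5.65) and HLA-F (4.47), and of HLA-F and NLRC5 (3.26) overlapped.

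Likeness of pattern was described over the 9 libraries by the root mean square difference of log2(TPM + 1), with each gene centred on its control mean. Among 6 members listed against control with both CM, HLA-B and TAPBP were the closest pair (0.126) and HLA-B and TAP1 the farthest (1.23). Of 7978 genes compared, the nearest to TAP1 were NXPH4 (0.123), the interferon-induced gene IFIT3 (0.136) and NEB (0.136). Nearest to HLA-E were CAMK2N1 (0.0545), the ephrin ligand EFNA1 (0.0550) and the deacetylase SIRT2 (0.0553), and nearest to TAPBP was the tetraspanin CD63 (0.0298). NLRC5 had no close neighbour, the nearest being C11orf86 (0.360).

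Genes that supply peptides moved in both directions. Of 12 in that list, 9 were listed for CRC-MPS CM and 10 for ESC CM relative to control, and 2 fell with each CM. Both were inducible subunits of the immunoproteasome, which favors peptides that fit class I grooves. Control values in this and the following lists are those of the table with CRC-MPS CM. PSMB8 averaged 15.3 ± 1.26 TPM with CRC-MPS CM (limma adjusted p = 2.77e-05), 15.5 ± 0.540 TPM with ESC CM (limma adjusted p = 1.59e-05) and 36.0 ± 3.71 TPM in control (SD, n = 3 each). PSMB9 averaged 1.70 ± 0.200 TPM with CRC-MPS CM (limma adjusted p = 0.000785), 1.39 ± 0.128 TPM with ESC CM (limma adjusted p = 0.000479) and 6.45 ± 2.37 TPM in control (SD, n = 3 each). Cytosolic peptidases, which can also destroy peptides, were among those that rose: TPP2 averaged 60.6 ± 3.67 TPM with CRC-MPS CM, 58.6 ± 2.28 TPM with ESC CM and 32.1 ± 1.63 TPM in control. The peptidase BLMH averaged 5.76 ± 0.404 TPM with CRC-MPS CM, 5.53 ± 0.616 TPM with ESC CM and 3.64 ± 0.405 TPM in control. Its call was lost with either CM without control replicate 1, and with ESC CM also without ESC CM replicate 1 or 3 (log2 fold change 0.43 to 0.48). It was lost with both CM when libraries were rescaled to a common upper quartile (ratio of means 1.40 for CRC-MPS CM and 1.38 for ESC CM). In all, 2 rose with CRC-MPS CM, and 3 rose with ESC CM. Among all listed genes 25.5% were called lower with each CM, and 23.7% (CRC-MPS CM) and 20.7% (ESC CM) higher. The counts of this list were near those shares, so its mixture does not set it apart from other genes.

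Chaperones that fold and load class I chains went the other way from TAP1. Of 6, 5 were listed against control with each CM, and 4 rose with CRC-MPS CM, while 3 rose with ESC CM, none falling. Calreticulin (CALR), which holds the heavy chain in the loading complex, averaged 658 ± 29.5 TPM with CRC-MPS CM, 668 ± 31.6 TPM with ESC CM and 352 ± 23.2 TPM in control (limma adjusted p = 1.15e-05 for CRC-MPS CM and limma adjusted p = 7.77e-06 for ESC CM). The glucosyltransferase UGGT1, which checks folding of glycoproteins, averaged 46.3 ± 5.97 TPM with CRC-MPS CM, 36.7 ± 4.002 TPM with ESC CM and 24.1 ± 2.31 TPM in control. Its rise with ESC CM was not called without ESC CM replicate 1 or without control replicate 2 (log2 fold change 0.50 and 0.52). HSPA5, the abundant chaperone BiP, averaged 399 ± 41.6 TPM with CRC-MPS CM, 319.8 ± 34.5 TPM with ESC CM and 204 ± 22.8 TPM in control. Its rise with ESC CM was not called without ESC CM replicate 1 or without control replicate 1 (log2 fold change 0.58 and 0.56). PDIA3, the disulfide isomerase of the loading complex, averaged 818 ± 14.97 TPM with CRC-MPS CM, 784 ± 31.6 TPM with ESC CM and 525 ± 11.3 TPM in control, and with ESC CM its ratio of means of 1.497 lay just under the 1.5-fold limit. With libraries rescaled to a common upper quartile, PDIA3 lost its call with CRC-MPS CM (ratio 1.38), and UGGT1 (1.38) and HSPA5 (1.43) lost theirs with ESC CM. These proteins serve most secreted and membrane proteins, not only class I. The median log2 ratio of the listed chaperones was 0.90 with CRC-MPS CM, while it was 0.61 with ESC CM. For the listed MHC members it was -0.84 with CRC-MPS CM (6 members) and -0.51 with ESC CM (8 members). The ESC CM median also takes in HLA-C (-0.21) and B2M (-0.17), which were not listed for CRC-MPS CM. The medians of the members are therefore of different genes and do not rank the CM. Over all listed genes the median was -0.0015 in the table of CRC-MPS CM and -0.052 in that of ESC CM.

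**Figure D3:**
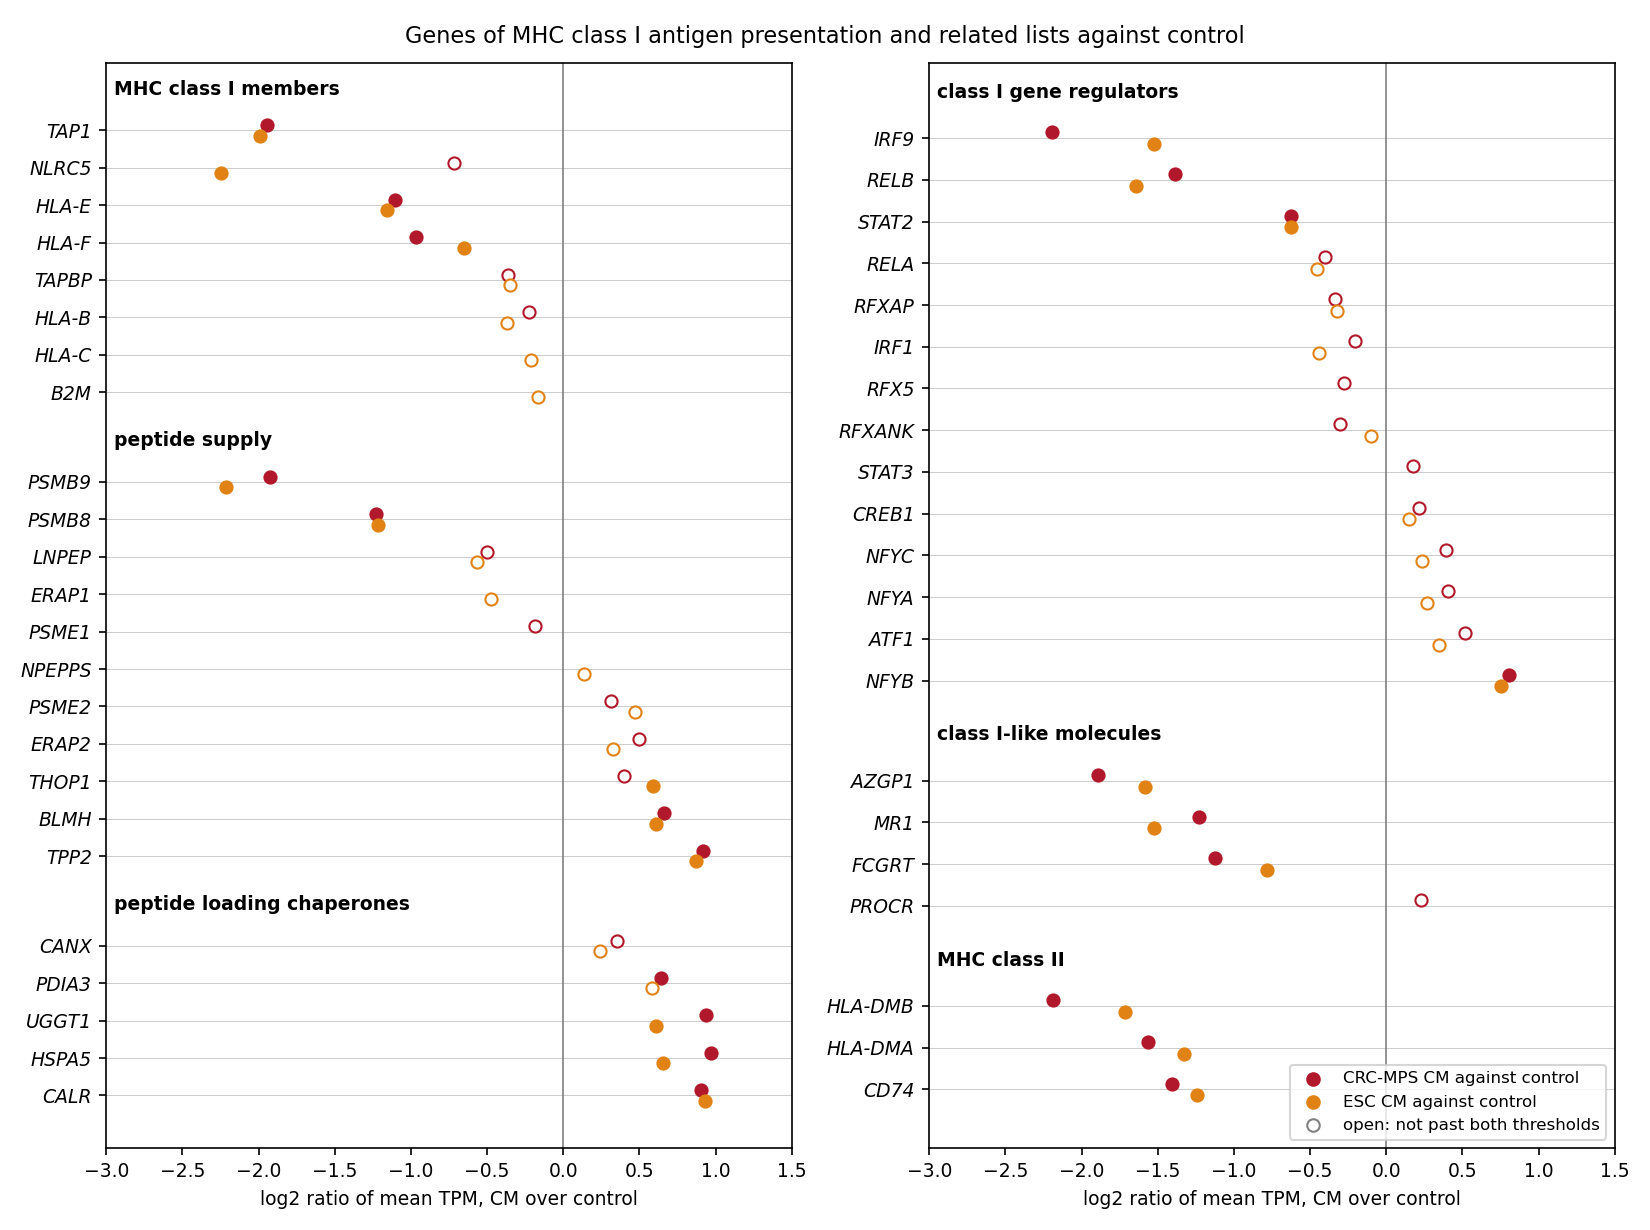
Log2 ratio of mean TPM of CM over control (x axis) for the MHC class I members and 5 related gene lists (rows), with CRC-MPS CM and ESC CM as separate points, filled where adjusted p was under 0.05 and the means differed by over 1.5-fold. TAP1, PSMB9, PSMB8, IRF9 and RELB lie left of 0 with both CM, while the listed loading chaperones all lie right of 0.

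Regulators of class I genes were mixed as well. Of 16, 14 were listed for CRC-MPS CM and 12 for ESC CM relative to control, and 3 fell and 1 rose with each CM. Neither count exceeded the share of all listed genes called lower (25.5% with each CM) or higher (23.7% with CRC-MPS CM, 20.7% with ESC CM). IRF9, a DNA-binding factor of the type I interferon response, averaged 22.2 ± 1.39 TPM with CRC-MPS CM and 102 ± 18.8 TPM in control (log2 fold change -2.13, SE 0.12, limma adjusted p = 5.55e-06). With ESC CM IRF9 averaged 35.6 ± 4.33 TPM (log2 fold change against control -1.49, SE 0.13, limma adjusted p = 4.14e-05). IRF9 was also the only regulator called between the CM, with 22.3 ± 1.31 TPM with CRC-MPS CM and 35.7 ± 4.30 TPM with ESC CM (limma adjusted p = 0.0455), the opposite order to that of NLRC5. That call rested on single libraries: the limma adjusted p was 0.0279 without CRC-MPS CM replicate 1, but ran between 0.0975 and 0.205 without CRC-MPS CM replicate 2 or 3 or without any 1 of the ESC CM replicates. RELB, an NF-kB subunit, averaged 9.92 ± 1.16 TPM with CRC-MPS CM, 8.27 ± 0.689 TPM with ESC CM and 25.9 ± 1.20 TPM in control. STAT2, which acts with IRF9, averaged 13.3 ± 0.499 TPM with CRC-MPS CM, 13.3 ± 0.783 TPM with ESC CM and 20.6 ± 2.28 TPM in control. Neither fall of STAT2 was called without control replicate 3 (log2 fold change -0.51 for CRC-MPS CM and -0.50 for ESC CM). NFYB, a subunit of the CCAAT-binding factor of class I promoters, rose to 45.5 ± 2.53 TPM with CRC-MPS CM and 44.0 ± 2.29 TPM with ESC CM, against 26.02 ± 3.32 TPM in control.

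Interferon receptors and their signaling genes did not all move 1 way. Of 11, 7 were listed against control with each CM, and 4 fell and 1 rose in each comparison. Of all listed genes, 25.5% were called lower with each CM, and 23.7% (CRC-MPS CM) and 20.7% (ESC CM) higher. The interferon gamma receptor chain IFNGR2 averaged 34.4 ± 2.66 TPM with CRC-MPS CM, 34.9 ± 1.56 TPM with ESC CM and 64.2 ± 5.63 TPM in control. The type I receptor chain IFNAR2 averaged 4.88 ± 0.502 TPM with CRC-MPS CM, 5.65 ± 1.33 TPM with ESC CM and 9.69 ± 0.774 TPM in control. The receptor kinase JAK1 averaged 30.2 ± 1.32 TPM with CRC-MPS CM, 27.8 ± 2.23 TPM with ESC CM and 45.7 ± 3.21 TPM in control, and with CRC-MPS CM it was not called without CRC-MPS CM replicate 1 or without control replicate 2 (log2 fold change -0.55 and -0.54). USP18, a feedback inhibitor that interferon induces, averaged 2.45 ± 0.147 TPM with CRC-MPS CM, 3.08 ± 0.178 TPM with ESC CM and 13.1 ± 3.25 TPM in control. The kinase TYK2 was the one that rose, to 37.4 ± 1.88 TPM with CRC-MPS CM and 41.3 ± 2.40 TPM with ESC CM, against 24.96 ± 3.10 TPM in control. With CRC-MPS CM that call was lost without CRC-MPS CM replicate 1, control replicate 1 or control replicate 2, each leaving the means under 1.5-fold apart (log2 fold change 0.50 to 0.55). Rescaling to a common upper quartile ended the calls of TYK2 with both CM (ratio of means 1.33 for CRC-MPS CM and 1.499 for ESC CM).

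Molecules built like class I chains were listed in part. Of 6, 4 were listed for CRC-MPS CM and 3 for ESC CM, and 3 fell with each, where 25.5% of all listed genes did. AZGP1, a secreted lipid-binding relative, averaged 22.7 ± 1.27 TPM with CRC-MPS CM, 27.98 ± 0.811 TPM with ESC CM and 84.2 ± 3.99 TPM in control. FCGRT, the heavy chain of the neonatal Fc receptor and a partner of B2M, averaged 57.3 ± 9.999 TPM with CRC-MPS CM, 72.8 ± 1.59 TPM with ESC CM and 125 ± 5.85 TPM in control. MR1, which presents vitamin metabolites, averaged 0.766 ± 0.0640 TPM with CRC-MPS CM, 0.621 ± 0.0225 TPM with ESC CM and 1.79 ± 0.369 TPM in control.

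Of 12 genes of MHC class II presentation, 3 were listed against control and all 3 fell with both CM. With each CM 25.5% of all listed genes were called lower. The invariant chain CD74 averaged 3.55 ± 0.349 TPM with CRC-MPS CM, 3.96 ± 0.598 TPM with ESC CM and 9.42 ± 0.969 TPM in control. HLA-DMA, a chain of the class II peptide editor, averaged 3.96 ± 0.840 TPM with CRC-MPS CM, 4.66 ± 1.39 TPM with ESC CM and 11.7 ± 1.146 TPM in control. HLA-DMB, its partner chain, averaged 0.485 ± 0.0407 TPM with CRC-MPS CM, 0.671 ± 0.105 TPM with ESC CM and 2.21 ± 0.570 TPM in control. None of the 12 was listed between the CM.

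Ligands read by NK and T cells were listed in part. Of 15, 7 were listed against control with each CM, and 3 fell with each, where 25.5% of all listed genes did. ULBP1, a stress ligand of the NK receptor NKG2D, averaged 5.06 ± 0.480 TPM with CRC-MPS CM, 3.11 ± 0.465 TPM with ESC CM and 10.7 ± 2.27 TPM in control. NCR3LG1, a ligand of the NK receptor NKp30, averaged 12.7 ± 2.09 TPM with CRC-MPS CM, 12.1 ± 0.579 TPM with ESC CM and 21.7 ± 1.13 TPM in control. RAET1L, another NKG2D ligand, averaged 8.90 ± 1.31 TPM with CRC-MPS CM, 7.27 ± 1.0995 TPM with ESC CM and 14.1 ± 3.72 TPM in control. With CRC-MPS CM the call of RAET1L was lost without CRC-MPS CM replicate 2, control replicate 1 or control replicate 2 (limma adjusted p between 0.0699 and 0.104). CD274, which encodes the checkpoint ligand PD-L1, rose to 3.20 ± 0.554 TPM with CRC-MPS CM, against 1.25 ± 0.120 TPM in control (limma adjusted p = 0.000301). It was not listed for ESC CM against control, and between the CM it averaged 3.21 ± 0.550 TPM with CRC-MPS CM and 2.34 ± 0.837 TPM with ESC CM (limma adjusted p = 0.687).

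Markers of the line and of other cells moved with these groups as well. Of 10 colon epithelial markers 9 were listed against control, and their summed level was 8672 to 10013 TPM with CRC-MPS CM and 11831 to 13020 TPM in control. Most of that sum is KRT8 and KRT18. With CRC-MPS CM 5 were called lower and none higher, although EPCAM averaged 666 ± 16.6 TPM, against 535 ± 38.4 TPM in control. With ESC CM 5 were called lower and 1 higher (CDX1). Among all listed genes 25.5% were called lower with each CM. Of 10 leukocyte markers, 5 were listed for CRC-MPS CM with sums of 1680 to 1718 TPM, against 1966 to 2257 TPM in control, nearly all from LYZ (1681 ± 19.7 TPM with CRC-MPS CM and 2110 ± 152 TPM in control). PTPRC, CD3E, CD14 and HLA-DRA were listed in none of the tables. Of 10 stromal markers only COL1A1 was listed (0.683 to 1.59 TPM with CRC-MPS CM, 1.10 to 2.61 TPM in control). Of 10 adipocyte markers, 3 were listed for CRC-MPS CM, with sums of 3.80 to 5.06 TPM, against 10.2 to 14.8 TPM in control. Of 6 endothelial markers 1 was listed for CRC-MPS CM, TEK, which was called higher at a level near 0 (0.269 ± 0.0466 TPM, against 0.0655 ± 0.0299 TPM in control). The part of any of these in the member results was not tested. CRC-MPS CM replicate 1 stood somewhat apart, with a median absolute log2 difference of 0.122 and 0.144 to the other CRC-MPS CM libraries, which differed by 0.0675 from each other, and the count of 3 members called lower with CRC-MPS CM was the same without it. Rescaling each library to a common upper quartile shifted the median log2 fold change of all genes by -0.11 in the table of CRC-MPS CM with control and moved the share of calls that were higher to 31.9%, against 48.2% as deposited (for ESC CM, 31.3% against 44.8%). The quartile was taken over listed genes only, and that rescaling moved ratios to control downward (HLA-E with CRC-MPS CM from a log2 fold change of -1.09 to -1.26). Members already lower than control could therefore only stay lower, so this setting is no check of their direction. The same number of members were called.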

How the data were processed

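RNA of 9 HT29 libraries was measured, 3 per group, by paired-end sequencing. The authors deposited 3 tables, 1 per comparison of 6 libraries, made with STAR 2.6.1d, kallisto 0.46.0 and DESeq2 on hg38 per the submitters' processing notes; the sources name no annotation. The values per library, deposited by the authors, behave as TPM summed per gene, although the unit is not named. The authors' deposited mean normalized count is a signal, the mean over 6 libraries of counts divided by size factors. Fold changes and p-values of the authors' own test, which fill the other columns, were not used. No table gives read totals. The depth of each library is therefore unknown, and counting intervals were not computed.

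Tables list only genes with p under 0.05 in the authors' test. limma 3.58.1 (R 4.3.3; lmFit and eBayes with trend, two-sided) was fitted to log2(TPM + 1) of all listed genes of a table, so a fold change is on that scale and understates the change of low genes. Benjamini-Hochberg adjustment of the limma fit counted 20000 tests, with unlisted genes given the highest possible p. That count does not correct the variance trend of eBayes, which was estimated from the selected genes alone. Standard errors and p-values may therefore be too small. Calls needed an adjusted p under 0.05 and means that differed by over 1.5-fold. An exact permutation test of 3 against 3 cannot go below p = 0.1. On simulated data with 200 genes changed by 2-fold the fit recovered 89.5% (CRC-MPS CM against control, 10019 genes, 1 false call), 97% (ESC CM against control, 10007 genes, 1 false call) and 93.5% (between the CM, 2835 genes, 0 false calls). The changed genes were drawn only from genes above a minimum level, so these recoveries do not cover low genes, NLRC5 among them. Noise was normal, and against control far fewer genes changed than were called in the data. The false calls therefore describe the simulation only.

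Members and gene lists were chosen with earlier results of these data known. Named were all 9 members, from each related list and comparison up to 4 called genes with the largest absolute log2 ratio, and up to 3 genes nearest in likeness (mean of at least 1 TPM). Replicate numbers were not used to pair libraries in the main fits, since same-numbered libraries of different groups did not regularly deviate together. For replicate 3 the correlation was 0.20 between CRC-MPS CM and control, but -0.38 between the CM. With 3 libraries per group this check cannot exclude pairing. Alternatives were pseudocounts of 0.1 and 5, a filter at a mean of 1 TPM, other adjustment, rescaling, no minimum ratio or a ratio over 2, a replicate block, no trend, and each library left out. Names turned into dates stayed in the fits and out of lists, and 1 regulator is not reported here. Python 3.11.15, pandas 2.3.3, numpy 2.4.6 and matplotlib 3.10.9 were used.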

Additional observations from a re-analysis of the deposited data

How the results depend on the processing

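Over 240 alternative settings of a member's fold change (16 combinations of member and comparison), 231 kept their side of the thresholds. Another 6 passed that had not, and 3 no longer passed. Over 900 such settings of the other named genes, 831 kept their side, 62 no longer passed and 7 passed that had not. None reversed, but a changed ratio limit, adjustment, filter, trend or replicate block leaves the fold change as it is. Those settings could not reverse a direction, so only pseudocounts, rescaling and left-out libraries could move it. IRF9 between the CM had a limma adjusted p of 0.0555 with a pseudocount of 5, 0.059 without trend and 0.177 with a replicate block. With no minimum ratio, 8316 genes changed with CRC-MPS CM (4933 with it) and 8452 with ESC CM (4620 with it) relative to control, and 7 members were called with ESC CM. With a ratio over 2 the counts were 2479 and 2222, and HLA-F was no longer called with either CM. Between the CM, 40 genes changed, against 270 (and 1 member, NLRC5) adjusted over listed genes alone, 21 with a ratio over 2 and 20 with a replicate block. With each library left out in turn that count ran between 9 (without ESC CM replicate 2) and 187 (without CRC-MPS CM replicate 1), between 4606 and 4954 for CRC-MPS CM against control, and between 4291 and 4575 for ESC CM against control. In those fits 3 to 4 members were called for each CM against control and 0 between the CM. Same-numbered libraries correlated by -0.38 to 0.20 and not every library correlated best with its own number. The replicate block gave 4923 changed genes for CRC-MPS CM against control, 4548 for ESC CM against control, and left 3, 4 and 0 members called. With a pseudocount of 0.1, the nearest 3 genes in likeness kept 1 for HLA-F, 1 for TAP1 and 0 for NLRC5. Genes of low count, HLA-F and NLRC5, were the members whose calls turned on a single library.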
